A study of Mus musculus with 4 samples.

Results

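The synaptonemal complex and meiotic axis genes examined were Sycp1, Sycp2, Sycp3, Syce1, Syce2, Tex12, Hormad1 and Hormad2, 8 of the 22367 protein-coding genes annotated on the assembled mouse chromosomes. Their promoters were taken as the sequence within 1 kb of any annotated transcription start site (TSS), and a peak was assigned to a gene when its midpoint lay in that window. The peaks were those of KDM5C, an X-linked demethylase that acts on di- and tri-methylated lysine 4 of histone H3, mapped by ChIP-Seq in differentiating mouse epiblast-like cells (EpiLCs) at day 2. Both groups were male, of strain C57BL/6J in the labels, and carried a truncated Tsix, whose antisense RNA represses Xist: XΔTsixY cells had an intact Kdm5c (WT), and XΔTsix;ΔKdm5cY cells (KO) carried a Kdm5c allele that lacks the exons for the JmjC demethylase domain. The study's methods name other strain backgrounds for its mutant mice, so the strain of these cells is not settled. Each genotype had 1 immunoprecipitated and 1 input sample in the labels, and 1 deposited peak list. By the study's methods, the WT immunoprecipitates came from replicate embryonic stem cell lines and the KO immunoprecipitate from a single sample. A supplementary read count of the study lists a second KO replicate, and GEO mentions duplicates, so how many KO samples lie behind the list is not settled. The sources differ on whether day 2 is counted to the EpiLC stage or beyond it. With a single list per genotype, values stand without replicate error and genotypes were not tested against each other. RNA was not measured in these samples, so neither the cell type nor the loss of Kdm5c could be checked against expression.

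In meiotic prophase the paired homologous chromosomes are held side by side by the synaptonemal complex. Each chromosome first builds an axis, on which the sister chromatids are arrayed in loops. SYCP2 and SYCP3 coat the axes as lateral elements, SYCP1 spans the gap between them as the transverse filament, and SYCE1, SYCE2 and TEX12 form the central element in the midline. HORMAD1 and HORMAD2 are HORMA-domain proteins that mark axes before synapsis and are removed from them as the complex assembles. Expression of these genes is largely restricted to germ cells.

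In WT cells, 8 of the 8 promoters carried a KDM5C peak, and each carried exactly 1. In KO cells, 0 of the 8 did. Across all protein-coding genes, 24.0% had a WT promoter peak and 0.0939% (21 genes) had a KO promoter peak. The WT count lay above its background, but the members were chosen with earlier results of these data known, so this is a description. The KO background was too low for a count of 0 among 8 genes to set them apart. The KO peak nearest to any member peak lay on chromosome 3, 1145734 bp from the peak of Hormad1. A missing KO call means only that no region there passed the caller's threshold. The WT list held 6916 peaks on assembled chromosomes and the KO list 44.

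Promoters differ in CpG content, and KDM5C peaks lay mostly in CpG-rich ones. A promoter was called CpG-rich when, within 500 bp on either side of any TSS of the gene, the sequence had at least 50% GC and at least 0.6 times the CpG dinucleotides expected from its base content. Of CpG-rich genes, 43.5% had a WT promoter peak, and of the others 5.20% did. Of the members, 6 were CpG-rich by this rule. The remaining members, Syce1 and Hormad2, belonged to the class in which a peak was uncommon, and both had one. Around the outermost TSS their GC was 57.7% and 52.6%, which met the GC limit. Their CpG content was 0.52 and 0.50 times that expected, short of the limit of 0.6. The share of 5.20% covers all genes that failed the rule, so it may not be the fitting background for these members.

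The DNA just upstream of the TSS is shown for 5 members because it adjoins the TSSs that the peaks cover and holds sequence motifs described further below. Each run is the 150 bases before the outermost annotated TSS, read on the strand of the gene from the mm9 (NCBIM37) assembly, with exact matches to the E-box CACGTG or the E2F core GCGGGAA in capitals. The runs are chr3:102740024-102740173 on the minus strand for Sycp1, chr10:87922164-87922313 on the plus strand for Sycp3, chr9:50369374-50369523 on the minus strand for Tex12, chr3:95363449-95363598 on the plus strand for Hormad1 and chr7:147973754-147973903 on the minus strand for Syce1. Syce1 is given as a member with no match in this stretch.
Sycp1: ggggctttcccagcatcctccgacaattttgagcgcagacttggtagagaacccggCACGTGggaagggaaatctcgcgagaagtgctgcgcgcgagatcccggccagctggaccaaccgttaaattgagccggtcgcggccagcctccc
Sycp3: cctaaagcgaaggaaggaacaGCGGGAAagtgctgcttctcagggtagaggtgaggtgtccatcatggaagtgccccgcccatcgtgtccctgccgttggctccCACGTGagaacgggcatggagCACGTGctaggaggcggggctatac
Tex12: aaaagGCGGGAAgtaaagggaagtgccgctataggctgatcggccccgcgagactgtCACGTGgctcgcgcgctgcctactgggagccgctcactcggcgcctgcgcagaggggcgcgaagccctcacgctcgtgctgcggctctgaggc
Hormad1: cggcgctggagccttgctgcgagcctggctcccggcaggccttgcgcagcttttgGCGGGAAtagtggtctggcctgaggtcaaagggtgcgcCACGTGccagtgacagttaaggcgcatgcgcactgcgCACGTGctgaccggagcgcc
Syce1: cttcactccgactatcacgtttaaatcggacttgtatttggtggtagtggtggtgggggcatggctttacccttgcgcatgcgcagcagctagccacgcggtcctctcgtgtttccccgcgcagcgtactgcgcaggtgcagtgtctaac

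Peak strength was read from the score, which is 10 times the −log10 of the q-value, and from the fold enrichment of immunoprecipitate over input. Member scores ran from 248 at Hormad2 to 918 at Tex12, a ratio of 3.70, with a median of 393.5. The 5063 WT peaks at promoters of protein-coding genes had a median score of 87.0, with quartiles of 50.0 and 171. All 8 members lay above that upper quartile, and 6 lay above the 90th percentile of 343; Sycp3 and Hormad2 did not. Member fold enrichments ran from 6.15 at Sycp2 to 14.51 at Tex12, a ratio of 2.36, against a promoter median of 3.73 and quartiles of 3.05 and 4.92. Of all WT promoter peaks, 15.5% scored at or above the lowest member. Because each gene had 1 value, it cannot be said whether neighbours in this order, such as Hormad1 at 381 and Sycp2 at 367, differed beyond measurement error.

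**Figure D1:**
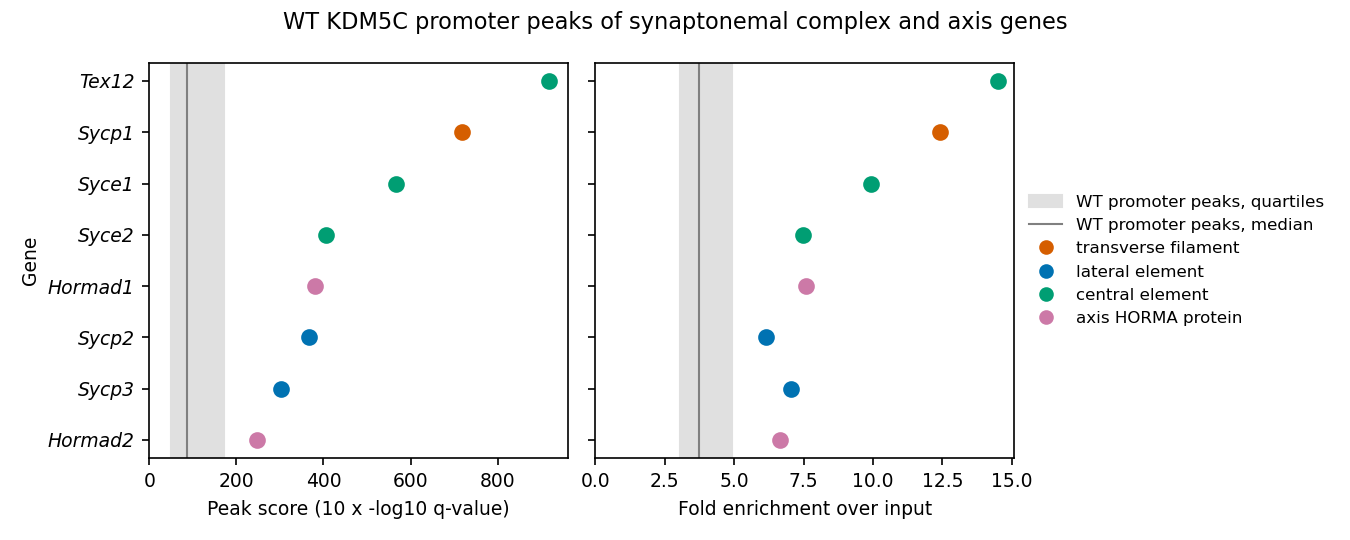
Score (left, 10 times −log10 q-value) and fold enrichment over input (right) of the WT promoter peak at each gene, coloured by the role of its protein; the grey band and line are the quartiles and median of 5063 WT promoter peaks. All 8 genes lie above the band on both scales, from 248 to 918 in score and from 6.15 to 14.51 in fold enrichment.

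The transverse filament gene was among the most strongly bound. The Sycp1 peak spanned chromosome 3, 102739268 to 102740379 (1112 bp). It scored 719 at a fold enrichment of 12.42, and ranked 134 by score among WT promoter peaks, above 97.3% of them. The summit lay 183 bp downstream of the TSS, in an intron, which was the farthest of any member from its nearest TSS. The other annotated Sycp1 TSS, within the gene body, had no WT peak near it.

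Both lateral element genes scored below the member median, though above most WT promoter peaks. At Sycp2 the peak spanned chromosome 2, 178141649 to 178142539 (891 bp) and scored 367, at the lowest fold enrichment of the members, 6.15. Sycp2 has 4 annotated TSSs, of which 2 fell inside the peak. Its summit lay in an intron 319 bp downstream of the outermost TSS but 56 bp downstream of the nearest one. At Sycp3 the peak spanned chromosome 10, 87921911 to 87923071, and its 1161 bp made it the widest member peak. Its score was 303 and its fold enrichment 7.04, so Sycp3 ranked below Sycp2 by score and above it by fold. The Sycp3 summit lay 18 bp upstream of the TSS, outside the gene.

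The central element genes included the strongest peak of the set. At Tex12 the peak spanned chromosome 9, 50368998 to 50369750 (753 bp), scored 918 and was enriched 14.51-fold over input. It ranked 72 among WT promoter peaks by score, above 98.6% of them, and by fold above 99.3%. Its summit lay 13 bp upstream of the only annotated TSS. At Syce1 the peak spanned chromosome 7, 147973418 to 147974138 (721 bp), scored 566 and was enriched 9.94-fold, with its summit 11 bp upstream of the TSS. Among the 594 genes outside the CpG-rich class that had a WT promoter peak, Syce1 ranked 11 by score, against a class median of 75.0. At Syce2 the peak spanned chromosome 8, 87395988 to 87397003 (1016 bp), scored 406 and was enriched 7.46-fold. The Syce2 peak was placed differently from the others. It began 22 bp before the outermost TSS and extended into the gene, covering all 3 annotated TSSs, with its summit 432 bp downstream of the outermost and 105 bp downstream of the nearest. That position is intronic in some Syce2 transcripts and falls in an exon of a noncoding one.

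Both genes of the HORMA-domain axis proteins had narrower peaks. At Hormad1 the peak spanned chromosome 3, 95363307 to 95363863 (557 bp), scored 381 and was enriched 7.57-fold, and its summit fell on the outermost TSS itself. At Hormad2 the peak spanned chromosome 11, 4340631 to 4341240 (610 bp), had the lowest score, 248, and was enriched 6.65-fold. Its summit lay in 5′ untranslated sequence, 63 bp downstream of the nearest TSS and 86 bp downstream of the outermost. Of 7 annotated Hormad2 TSSs, 4 fell inside the peak, and the others, deeper in the gene, had no WT peak near them. Hormad2 ranked 64 among the 594 bound genes outside the CpG-rich class, above 89.1% of them.

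**Figure D2:**
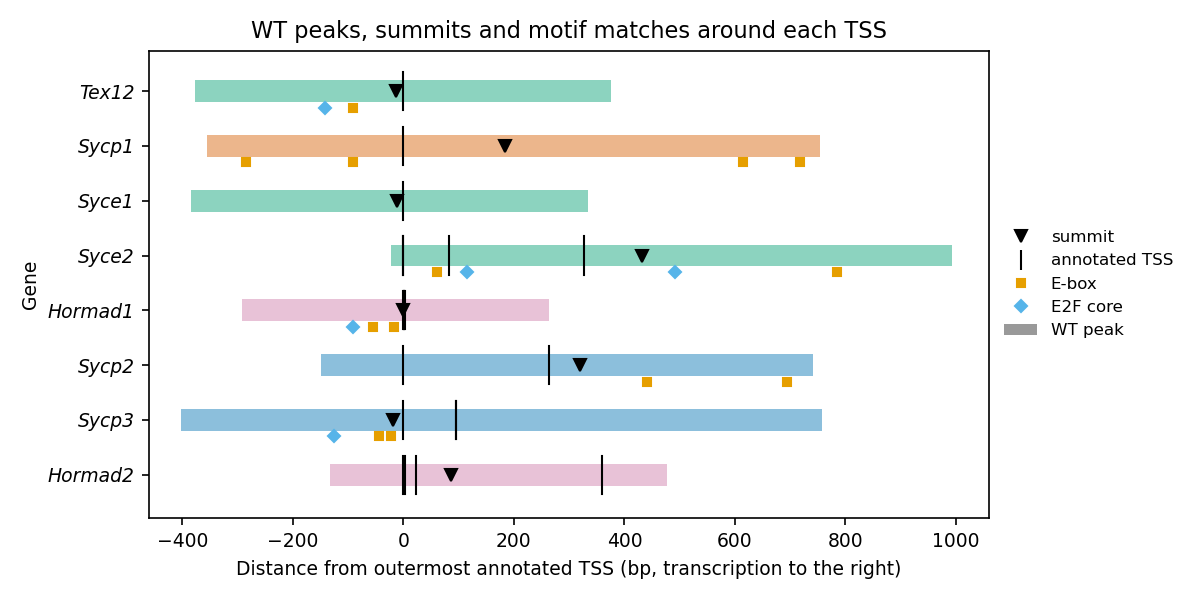
WT peaks (bars) around the outermost annotated TSS of each gene, in bp with transcription to the right; triangles mark summits, vertical lines the annotated TSSs in range, squares E-box matches and diamonds E2F core matches within the peak. Every peak covers the outermost TSS, and the Syce2 peak reaches from 22 bp before it into the gene.

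Across the set, summits lay close to TSSs. Of the 8, 6 lay within 100 bp of the nearest TSS of their gene, and Syce2 and Sycp1 lay at 105 and 183 bp. The median distance was 37.0 bp, against 154 bp (quartiles 68.0 and 284 bp) for WT promoter peaks measured to the nearest TSS of any gene. Relative to the nearest TSS, 4 summits were downstream, 3 upstream and 1 on it. Member widths ran from 557 to 1161 bp with a median of 822 bp, against 540 bp for WT promoter peaks, and 3 members (Sycp1, Sycp3 and Syce2) exceeded 1 kb. Score and width were not independent, with a Spearman's rho of 0.55 across the 5063 WT promoter peaks, all from the same libraries.

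None of these peaks could be assigned to a neighbouring gene by the same rule. For 0 of the 8 did a TSS of another annotated gene lie within 1 kb of the midpoint. The closest belonged to Farsa, 5033.5 bp from the midpoint of the Syce2 peak, Bco2, 6088.0 bp from that of Tex12, and Ppp1r3d, 7083.0 bp from that of Sycp2. Within 20 kb of the members the WT list held 2 further peaks. One lay upstream of Sycp2, at chromosome 2, 178147948 to 178149219, which scored 534. Its midpoint was 593.5 bp from the TSS of Ppp1r3d. The other lay beyond the end of Syce2, with a score of 66, and was nearest to Klf1, a gene named after its values were seen. No second peak lay inside any of the 8 gene bodies.

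Member peaks joined high scores with lower CpG content than most WT promoter peaks. The ratio of observed to expected CpG over the whole peak ran from 0.55 at Syce1 to 0.81 at Sycp1 and Syce2, with a median of 0.692, whereas WT promoter peaks had a median of 0.830. All 8 members lay below that median, and 4 lay below the lower quartile of 0.731. Over 200 bp centred on the summit, the ratio was higher at all members but Sycp1 and Syce2, reaching 1.12 at Tex12 and 1.02 at Hormad1. No such value is given here for WT promoter peaks. GC content over the peak was below the promoter median of 65.9% at 7 of the 8, with 67.2% at Syce2 and 50.8% at Hormad2 as the extremes. Member peaks were also wider, with a median of 822 bp against 540 bp, and the CpG and GC comparisons were not matched for width. These are descriptions of 8 peaks, and no test of CpG content against score was made. Across the 5063 WT promoter peaks of this list, Spearman's rho between the CpG ratio and score was 0.06.

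**Figure D3:**
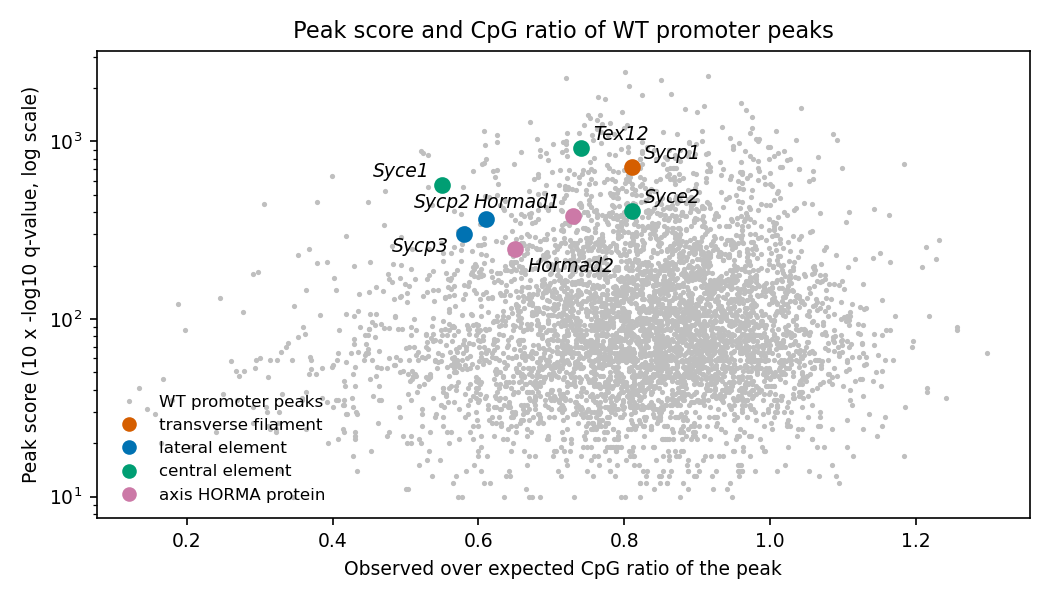
Score (log scale) against the ratio of observed to expected CpG for WT promoter peaks (grey) and for the 8 genes (coloured by role). All 8 lie to the left of the promoter median of 0.830 and above the promoter median score of 87.0.

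Matches to 3 motifs were sought on both strands because PRC1.6, a repressor complex of germ line genes in embryonic stem cells, contains proteins that bind them: the E-box CACGTG (MAX and MGA), the E2F core GCGGGAA (E2F6) and the T-box motif AGGTGTGA (MGA). In the member peaks, no match of one motif overlapped a match of another. In the 200 bp centred on the summit, the E-box was found at Sycp3, Tex12 and Hormad1, 3 of the 8, against 14.2% of WT promoter peaks. The E2F core was found at Syce2 and Hormad1, 2 of the 8, against 9.50%. The T-box motif was found at 0 of the 8, against 0.830%. A T-box match lay outside these 200 bp in the Sycp3 peak, 225.5 bp upstream of the outermost TSS. Over whole peaks the T-box motif was thus at 1 of the 8, against 2.41% of WT promoter peaks. With so few members, these counts say little on their own.

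Several matches lay just upstream of the TSS. Sycp3 held a pair of E-boxes centred 43.5 and 22.5 bp upstream of the outermost TSS, the nearer one 4.5 bp from the summit. Hormad1 held a pair at 54.5 and 17.5 bp upstream, with an E2F core 92 bp upstream. Tex12 held an E-box 90.5 bp upstream and an E2F core 142 bp upstream, and Sycp1 an E-box 91.5 bp upstream. In the 150 bp upstream of the outermost TSS, 4 of the 8 members held an E-box, against 4.62% of all protein-coding genes and 7.99% of those with a WT promoter peak. In the same stretch, 3 of the 8 held an E2F core, against 3.15% and 5.53%, and each of these 3 (Sycp3, Tex12 and Hormad1) also held an E-box. The T-box motif was found there at none of the members, against 0.519% of all protein-coding genes. The length of 150 bp was chosen after these positions had been seen, so the counts are a description. Sycp2, Syce1, Syce2 and Hormad2 had none of these letters in that stretch, which says nothing about whether the factors bind there.

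Other genes of meiotic chromosomes were set beside the members. The central element has further proteins, SYCE3 and SIX6OS1. The promoter of Six6os1 had a WT peak that scored 244, just under the lowest member, at 7.10-fold enrichment. That of Syce3 scored 82, at 3.25-fold. Among 21 further genes of meiotic axes, recombination and telomere attachment found in the annotation, 16 had a WT promoter peak. The share over all protein-coding genes was 24.0%. Of the 21, 12 were CpG-rich, and 10 of these had a peak, against 43.5% of CpG-rich genes. This list too was chosen with earlier results of these data known, so its counts are a description. Among the 21, the highest scores were 1730 at Stag3, 1034 at Msh4 and 877 at Fkbp6. Stag3 encodes a meiotic cohesin subunit and Msh4 a crossover factor, and Fkbp6 is a germ cell gene needed for meiosis in males. No WT promoter peak was assigned to Rad21l, Ccdc36, Prdm9, Msh5 and Rnf212, although the nearest WT peak midpoint lay 1831.5 bp from a TSS of Rad21l and 3361.0 bp from one of Ccdc36. With a window of 5 kb, the number with a peak among these genes and the central element partners rose from 18 to 20 of 23. The share of all protein-coding genes rose too, from 24.0% to 27.0%. At 1 kb, the 18 genes had a median score of 151.5, and 7 reached the lowest member score of 248. Of all protein-coding genes, 3.91% had a WT promoter peak of that score or above. The number of these 23 genes with a KO promoter peak was 0. With 0.0939% of all protein-coding genes having one, that count does not set them apart. Rec114 and Ankrd31 were listed too but were not matched to a protein-coding gene of this annotation.

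Genes with somatic roles in the same families were also looked up. The mitotic HORMA-domain genes Mad2l1 and Mad2l2, which act in the spindle checkpoint and in DNA damage tolerance, had no WT promoter peak. Both promoters were CpG-rich, but only 43.5% of CpG-rich genes had one, so a count of 0 among 2 does not set them apart. Of the cohesin genes used in mitosis, Smc1a had a peak with a score of 248 and Stag1 one of 155, whereas Smc3, Rad21 and Stag2 had none. That was 2 of 5, all of them CpG-rich, which is near the 43.5% of CpG-rich genes given above, and the Smc1a score equalled that of the lowest member. The members and these lists were compared by their counts and scores as given, with no test.

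**Figure D4:**
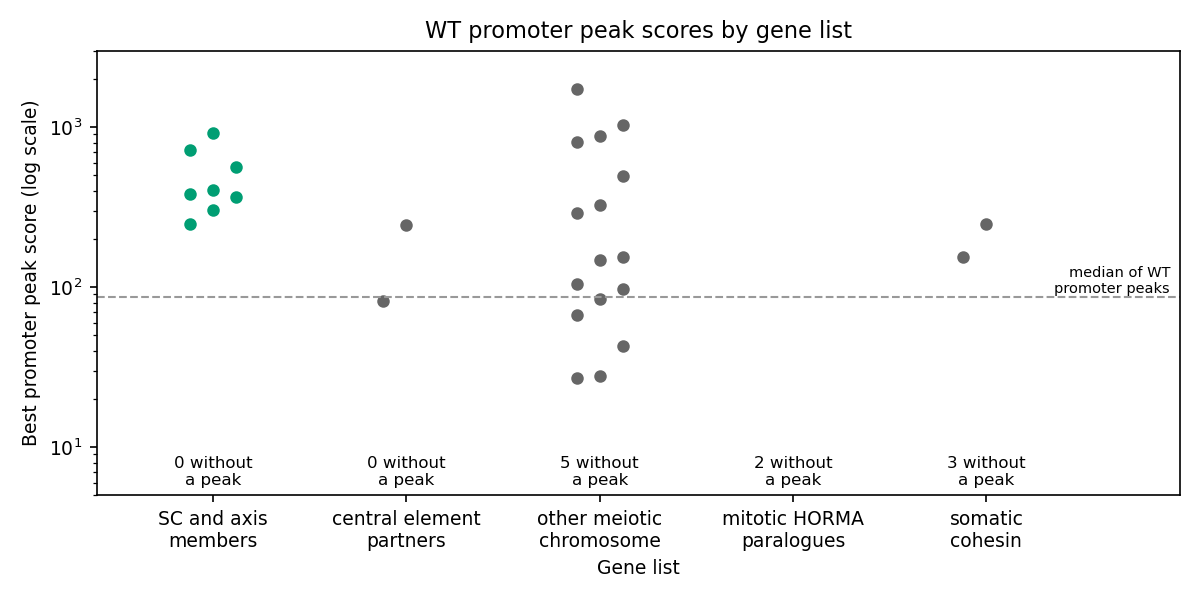
Score (log scale) of the best WT promoter peak of each gene in the synaptonemal complex (SC) and axis set and in 4 further lists, with the number of genes without a peak printed below each. The 8 members lie between 248 and 918, and the other meiotic chromosome genes between 27 and 1730 with 5 of 21 lacking a peak.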

How the data were processed

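KDM5C ChIP-Seq and input libraries of WT and KO EpiLCs were sequenced as single-end reads. Per the study's methods and the submitters' processing notes, the authors aligned reads to mm9 with Bowtie, kept unique mappers and called peaks with MACS2 2.1.0.20140616 against input, with limits on q-value and fold enrichment; replicates were called together for WT. Bowtie is 1.1.2 in those notes, and the methods name another version. The deposited lists give each peak a score, a ratio of immunoprecipitate over input (fold enrichment), −log10 q-values and a summit offset; their −log10 p-values were not used. The score deposited by the authors equalled 10 times the −log10 q-value with decimals dropped in all 6933 WT and 47 KO peaks. Unique mapping loses peaks in repeated sequence, and calling WT on more replicates than KO, if so done, can give the WT list more power. The files hold no counts, so the depth behind single peaks is unknown here; the study states a minimum of reads per sample, which bounds depth from below only. Fold enrichments were compared within the WT list only.

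Samples were grouped by title. Peaks on chromosomes 1 to 19, X and Y were assigned to TSSs of GENCODE M1 (NCBIM37, the same assembly as mm9; 0 peaks ran past a chromosome end), with coordinates counted from 1. Python 3.11.15, NumPy 2.4.6, SciPy 1.17.1 and pysam 0.24.0 were used. Promoter assignment and motif search were tested on simulated data. The named genes were the 8 members, the 3 of highest score and those without a WT promoter peak in each further list, and the neighbour nearest each peak (the closest 3 are given). Members, lists and motifs were chosen with earlier results of these data known. Alternatives were other windows, the summit as position, coding transcripts only, and score limits.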

Additional observations from a re-analysis of the deposited data

How the results depend on the processing

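The count of 8 members with a WT promoter peak was the same with windows of 500 bp and 5 kb, with the summit as position, with TSSs of protein-coding transcripts only, and with peaks kept from the WT median score of 82.0 upward; at the WT 90th percentile of 320 it was 6, without Sycp3 and Hormad2. The count of members with a KO promoter peak was 0 under each of these. At the WT 90th percentile the median member score was 486.0, 2.79% of protein-coding genes had a WT promoter peak and 6 of the 23 other meiotic genes did; at the WT median, 13.0% of protein-coding genes did. A score limit removes peaks by construction. Over the whole peak, an E-box was found at 6 members and an E2F core at 4. Of WT promoter peaks of the members' widths, 34.3% and 27.1% held them. The T-box motif was found at 1 member, Sycp3, against 2.99% of those peaks. In 100 bp at the summit, an E-box was found at 2 members, against 7.68% of WT promoter peaks. An E2F core was found there at 0, against 5.10%. Longer sequence holds more matches by construction. Of 80 alternative values, 7 moved and 0 reversed. The E2F core stood above its background in 200 bp at the summit, at 2 members against 9.50% of WT promoter peaks. In 100 bp it stood below, at 0 against 5.10%, which was counted as moved. Of the 80, 46 were scores of single genes, and 0 of those moved. Sycp3 and Hormad2 lost their peaks at the WT 90th percentile, so they had no score there and that setting was not counted for them. A gene that keeps the same peak keeps its score by construction, so those 46 say little about robustness. The change from 8 to 6 members was counted as not moved. No paired analysis was possible because there was a single list for either genotype. The effect of sequencing depth could not be tried.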
